A study of Mus musculus with 2 samples.

Results

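The miR-7 family of the mouse is made from 3 miRNA genes, Mir7-1, Mir7-2 and Mir7b, and its level was measured in embryonic stomach by microRNA-seq. The 3 genes were chosen by symbol from GENCODE, and all 3 were found among the 1973 genes listed in each table. The tissue was whole stomach of B6NCrl mouse embryos of both sexes, 15.5 days old and labelled healthy, from which RNA under 30 nt was sequenced. Biological replicate 1 pooled 78 embryos and biological replicate 2 pooled 62 embryos. No treatment, mutation or second age was included, so levels were compared between loci and between the 2 pools. Because each library is a whole organ from many embryos, fewer cells of a type and less RNA per cell cannot be told apart.

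A miRNA gene gives a hairpin RNA that is cut into a 5p and a 3p mature arm, and bases 2 to 8 of a mature arm, the seed, pair with target transcripts. miR-7 is an old, highly conserved miRNA best known from neurons and hormone-secreting cells. Its abundance in brain is controlled by the long noncoding RNA Cyrano and the circular RNA Cdr1as, which is itself cut with the help of miR-671. In the developing stomach, miR-7 and miR-203 are known as repressors of Barx1, a homeobox gene of stomach mesenchyme that directs the overlying epithelium to a stomach fate and is turned down as the organ matures. Barx1 mRNA was not measured in these small-RNA libraries.

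The mature sequences show which reads can tell the 3 loci apart. They are from RefSeq (GRCm38.p6), written 5′ to 3′ with the seed in capitals, and all 3 members were matched. The 5p arms, which act on targets, were the following.
miR-7a-5p from Mir7-1 (chr13:58392841-58392863, minus strand) and from Mir7-2 (chr7:78888295-78888317, plus strand): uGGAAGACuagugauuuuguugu
miR-7b-5p from Mir7b (chr17:56243017-56243040, plus strand): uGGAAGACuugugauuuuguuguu

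Both 5p arms carried the seed GGAAGAC, and no mature arm of any other gene in the table had it. Counted from base 1 at the 5′ end, miR-7b-5p differed from miR-7a-5p by the substitution A10U and by 1 further base at its 3′ end. The 5p arm of Mir7-1 was identical to that of Mir7-2, while the 3p arms differed at every locus.
miR-7a-1-3p from Mir7-1 (chr13:58392800-58392821, minus strand): cAACAAAUcacagucugccaua
miR-7a-2-3p from Mir7-2 (chr7:78888335-78888356, plus strand): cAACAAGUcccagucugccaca
miR-7b-3p from Mir7b (chr17:56243055-56243076, plus strand): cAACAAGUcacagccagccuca

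From miR-7a-1-3p to miR-7a-2-3p there were 3 substitutions, A7G, A10C and U21C, of which A7G lies in the seed. From miR-7a-2-3p to miR-7b-3p there were 4, C10A, U14C, U16A and A20U, and these arms shared a seed. The hairpins of Mir7-1 and Mir7-2 held an identical run of 24 bases, 1 longer than the mature 5p arm, whereas the longest run either shared with Mir7b was 14 bases. A read inside the 24-base run matches both Mir7a loci, and reads that match several places are a line of their own in the tables, not part of any gene's count. The tables give 1 count per gene and no count per arm. The level of mature miR-7a-5p, the product named with Barx1, therefore cannot be read from the counts of Mir7-1 and Mir7-2. Those of Mir7b are less affected, although how many mismatches the aligner allowed is not known here.

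The 3 loci lie on separate chromosomes of mm10. Mir7-1 (ENSMUSG00000065434, chromosome 13, 58392779 to 58392886, minus strand) lies within Hnrnpk, a gene for an RNA-binding protein, on the same strand and overlapping none of its annotated exons. Mir7-2 (ENSMUSG00000065609, chromosome 7, 78888277 to 78888373, plus strand) overlaps no other annotated gene, and the nearest, Aen, starts 7480 bases downstream. Mir7b (ENSMUSG00000065491, chromosome 17, 56242988 to 56243098, plus strand) also overlaps none, but the long intergenic noncoding RNA AC026385.1 ends 182 bases upstream on the same strand. No other listed miRNA gene lay within 10 kb of any of them.

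The depth behind these values was 5988677 sense-strand counts over all miRNA genes in replicate 1 and 6675498 in replicate 2. Levels are given as CPM, a gene's count divided by its library's total and brought to the same scale in both libraries, and a count of 0 allowed up to 0.501 and 0.449 CPM. Reads carried no molecular identifiers, so duplicate reads could not be told from separate molecules. Every interval and limit below takes reads as independent. It covers the error of counting only, without duplicate reads or spread between pools. The labelled tissue was checked against fixed markers: the 5 epithelial miR-200 genes held 4.35% and 4.32% of the counts in replicates 1 and 2, led by Mir429, and the smooth muscle pair, nearly all of it Mir143, 17.8% and 18.3%.

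Among reads assigned to a single locus, Mir7b had the highest level in both pools, followed by Mir7-1 and then Mir7-2. Reads of miR-7a-5p that match both Mir7-1 and Mir7-2 are not counted, so this is not an order of the loci's full output. Mir7b had 3481 counts in replicate 1 and 4149 in replicate 2, or 581 CPM (95% Wilson interval 562 to 601) and 622 CPM (603 to 641). Its mean was 601 ± 28.5 CPM (SD, n = 2), rank 113 of the 1973 genes. The median of the 369 genes with at least 10 counts in both libraries was 126 CPM, so Mir7b stood in the upper part of the detected genes.

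Mir7-1 had 1235 counts in replicate 1 and 1377 in replicate 2. These came to 206 CPM in each library (195 to 218 and 196 to 217), with a mean of 206 ± 0.0384 CPM (SD, n = 2) and rank 156. The 2 pools were closer together than the counting intervals of either. An SD from 2 libraries is itself poorly known, and so small a value says little about the spread of pools in general.

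Mir7-2 had 233 counts in replicate 1 and 345 in replicate 2, or 38.9 CPM (34.2 to 44.2) and 51.7 CPM (46.5 to 57.4). Its mean was 45.3 ± 9.03 CPM (SD, n = 2), rank 232 and below the median of the detected genes. Replicate 2 was the higher library, and the counting intervals did not overlap, which was also so for Mir7b. Differences of this kind were common: with no limit on size, 46.4% of the 466 tested genes had an adjusted p below 0.05 between the pools (exact binomial test). None of the 3 genes had a count on the opposite strand in either library.

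The levels of the 3 loci did not overlap each other in either pool, and the gaps between loci were larger than the spread of the replicates. Counts of Mir7b exceeded those of Mir7-1 by 2.82-fold in replicate 1 (95% exact interval 2.64 to 3.01) and 3.01-fold in replicate 2 (2.83 to 3.20), a log2 ratio of 1.54 ± 0.07 (SD, n = 2). Against Mir7-2 the excess of Mir7b was 14.9-fold (13.1 to 17.1) in replicate 1 and 12.0-fold (10.8 to 13.5) in replicate 2, a log2 ratio of 3.74 ± 0.22. Divided by the hairpin lengths of 111, 108 and 97 bases, the mean levels were 5.42, 1.91 and 0.467 CPM per base for Mir7b, Mir7-1 and Mir7-2. The lengths differ far less than the counts, so this division could not change the order. The order describes reads assigned to a single locus, and reads in the run shared by Mir7-1 and Mir7-2 are not in it.

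Together the 3 loci held 0.0826% of the sense counts in replicate 1, with a 95% Wilson interval of 0.0804 to 0.0850. In replicate 2 they held 0.0879% (0.0857 to 0.0902), which gives a mean of 0.0853% ± 0.00375 (SD, n = 2). Mir7b gave 70.3% (69.0 to 71.6) of the family's counts in replicate 1 and 70.7% (69.5 to 71.8) in replicate 2. Mir7-1 gave 25.0% (23.8 to 26.2) and 23.5% (22.4 to 24.6). Mir7-2 gave 4.71% (4.15 to 5.33) and 5.88% (5.30 to 6.51), so the intervals of all 3 shares overlapped between the pools, those of Mir7-2 only at their edges. The shares leave out reads in the run that Mir7-1 and Mir7-2 have in common, so they are not shares of the mature miR-7 made.

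**Figure D1:**
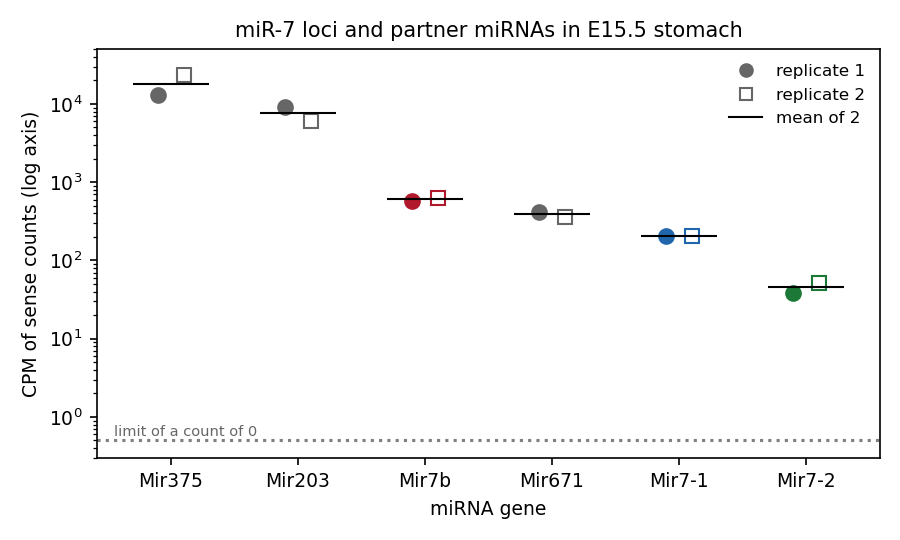
Level of each miR-7 locus and of 3 partner miRNA genes, as CPM of sense counts on a log axis, in replicate 1 (filled circle) and replicate 2 (open square), with the mean of both as a bar. Mir7b (581 and 622 CPM), Mir7-1 (206 in each) and Mir7-2 (38.9 and 51.7) do not overlap, and all lie above the dotted limit of a count of 0.

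The miR-7a genes were set beside other genes of like build. Of the 1973 listed genes, 916 had a mature sequence in the RefSeq table. In 829 of these no arm was identical to an arm of another gene, and Mir7b is one of them. In 53, among them Mir7-1 and Mir7-2, at least 1 arm was shared and at least 1 was not, and in 34 every arm was shared. The sequences are not complete: 1057 listed genes, Mir143 among them, had none, and Mir375 had only its 5p arm. A gene whose shared arm is missing there can fall in the class with no arm shared. Both arms were present for each miR-7 locus. The percentage of genes with at least 10 counts in both libraries was 35.0% with no arm shared, 73.6% in the mixed class and 23.5% with every arm shared. Among genes so detected, the median level was 150 CPM with no arm shared and 67.5 CPM in the mixed class. Mir7-1 stood above this second median with 12 of the 53 genes higher, and Mir7-2 below it with 22 higher. The classes hold different miRNAs, so these values are a description with no test. Whether dropped reads lowered the counts of Mir7-1 and Mir7-2 was not tested.

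**Figure D2:**
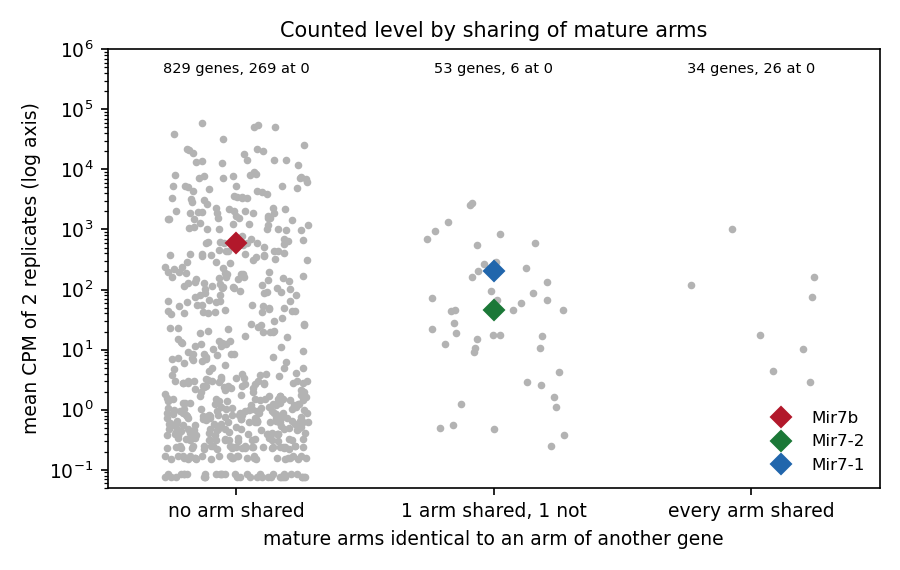
Mean CPM of the 2 replicates (log axis) for each gene, by whether its mature arms are identical to an arm of another gene, with the miR-7 loci as diamonds. Genes at 0 are given as a number above each class. The highest gene of the mixed class is at 2717 CPM, against 58462 CPM for genes with no shared arm. The classes hold 53 and 829 genes, so their highest genes are not compared on equal terms.

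The balance of Mir7-1 and Mir7-2 shifted between the pools. Counts of Mir7-1 were 5.30-fold those of Mir7-2 in replicate 1 (95% exact interval 4.60 to 6.12) and 3.99-fold in replicate 2 (3.54 to 4.50). The intervals did not overlap, with the lower ratio in replicate 2 set by the higher count of Mir7-2. They take reads as independent and leave out duplicate reads and spread between pools. The mean log2 ratio was 2.20 ± 0.29 (SD, n = 2). Among 15 pairs of numbered copies in the mixed class with at least 10 counts each in both libraries, the size of this ratio ran from 0.10 for Mir125b-1 and Mir125b-2 to 5.65 for Mir181b-2 and Mir181b-1, with a median of 2.05. The Mir7-1 and Mir7-2 pair was wider than that median, and 5 pairs were wider still. In 2 pairs the ratio shifted further between the pools than in the miR-7 pair. Others were close to its shift of -0.41 in log2, such as the pairs of Mir450 (0.40), Mir194 (-0.38) and Mir19b (-0.38). Whether the intervals of the other pairs overlapped between the pools was not tested.

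**Figure D3:**
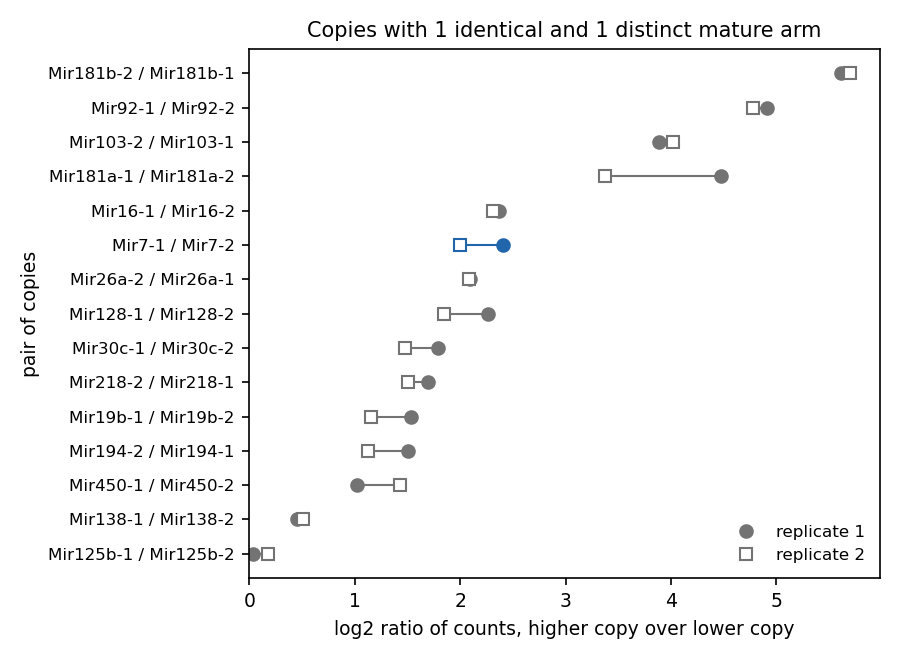
Log2 ratio of counts between 2 copies of a miRNA gene that share 1 mature arm and differ in the other, for 15 pairs, in replicate 1 (filled circle) and replicate 2 (open square). The Mir7-1 and Mir7-2 pair, in blue, stands at 2.41 and 2.00, near the median pair.

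No miR-7 locus was called between the pools. The 466 genes with 10 or more summed counts entered an exact binomial test, two-sided and conditional on each gene's sum, and p-values were adjusted over all of them by Benjamini-Hochberg. A call needed an adjusted p below 0.05 and a 2-fold difference, that is a log2 ratio of CPM + 1 of 1 or more in size. The test compares these 2 libraries, not conditions. By this rule 5.79% of genes were called (27 of 466), and 0 of the 3 members. Without the limit on size 46.4% of all genes passed, 13.1% as higher in replicate 2, and Mir7b and Mir7-2 were among the latter. So high a share of all genes passed that passing says little about any 1 of them.

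Mir7-2 had the largest ratio of the 3, a log2 ratio of replicate 2 over replicate 1 of 0.40 (95% exact interval 0.17 to 0.66, exact binomial test, adjusted p = 0.00235). Of all tested genes, 30.5% had a ratio of larger size. Mir7b stood at 0.10 (0.03 to 0.16, exact binomial test, adjusted p = 0.00871), with 76.6% of genes larger in size. Mir7-1 stood at 0.00 (-0.11 to 0.11, exact binomial test, adjusted p = 1) with library totals, and at 0.16 with DESeq2 size factors (exact binomial test, adjusted p = 0.0141). The median tested gene had a ratio of -0.11, and the median size was 0.27. By edgeR's exact test, which uses a dispersion estimated from the same 2 libraries, the adjusted p was 1 for each of the 3 loci. Its unadjusted p was 0.587 for Mir7b, 0.759 for Mir7-1 and 0.214 for Mir7-2. Few genes of any kind were called by that test, 4 of the 466. Its dispersion takes the difference between these pools as noise, so these p-values cannot show that a locus is unchanged.

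**Figure D4:**
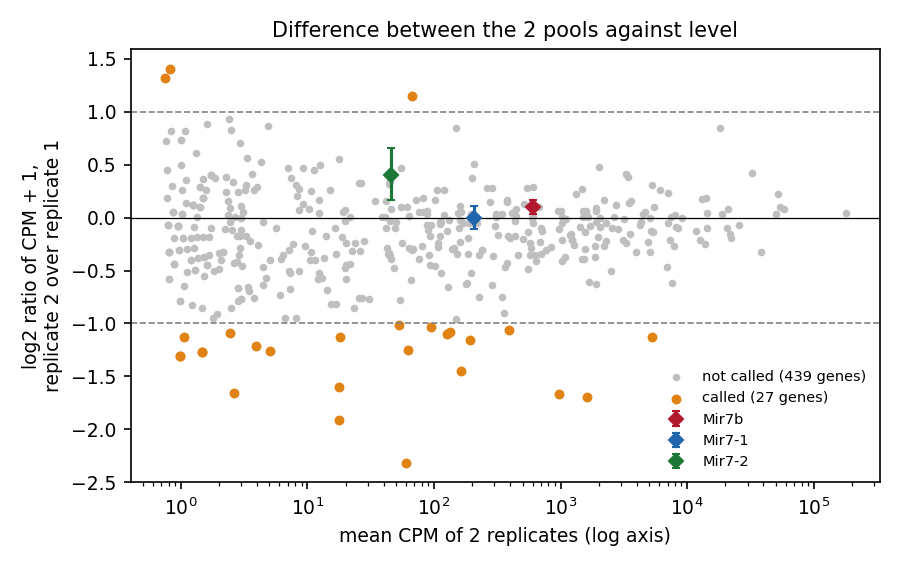
Log2 ratio of CPM + 1 in replicate 2 over replicate 1 against mean CPM (log axis) for the 466 tested genes. Called genes are orange, dashed lines mark the 2-fold limit, and bars on the miR-7 loci are 95% exact intervals. The 3 loci, at 0.10 (Mir7b), 0.00 (Mir7-1) and 0.40 (Mir7-2), lie inside the limit.

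Partner miRNAs of miR-7 were read in the same libraries. Mir203, from the other miRNA known to act on Barx1 and a marker of stratified epithelium, had 55358 counts in replicate 1 and 40267 in replicate 2 (9244 and 6032 CPM). That was 11.2 times the summed miR-7 counts in replicate 1 (95% exact interval 10.9 to 11.5) and 6.86 times in replicate 2 (6.67 to 7.05), a sum that leaves out shared miR-7a reads. The log2 ratio of Mir203 between the pools was -0.62, under the fold limit, and negative where that of Mir7-2 was positive. Mir375, used here as the marker of endocrine cells, stood at 12876 and 23221 CPM with a log2 ratio of 0.85, also under the limit. Which cells its reads came from was not tested. Mir671, whose miRNA cuts Cdr1as, stood at 410 and 364 CPM, a ratio of -0.17. Of the 6 genes of this list, miR-7 loci included, 0 were called in either direction, where 5.79% of all 466 tested genes were called. With so low a share, 0 called in so short a list says little. The median log2 ratio of the list was 0.05 against -0.11 for all tested genes.

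The miRNA pairing with Barx1 was looked at in the annotation. The Barx1 transcript of GENCODE M21 has a 3′ untranslated region of 515 bases. On its sense strand the 7 letters GTCTTCC, which pair with bases 2 to 8 of both miR-7 5p arms, did not occur, nor did the 6 letters TCTTCC. They are found in 5.31% and 22.1% of 1017 such regions of other genes with a length within 10% of it. The letters CATTTCA, which pair with the seed of miR-203-3p, occurred once, 82 bases into the region, and in 6.29% of the others. The miR-203 arm is shown with that stretch of Barx1, in capitals where the letters match.
miR-203-3p from Mir203 (chr12:112130927-112130948, plus strand, GRCm38.p6): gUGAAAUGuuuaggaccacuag
Barx1 (chr13:48666059-48666088, plus strand, mm10): cgtttgctttctaatCATTTCAttactact

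A match of letters is a description and not a site in use, and their absence says only that they are not in this annotated window. Pairing outside the seed, in other transcript ends or in coding sequence was not searched.

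Markers of cells known to hold miR-7 were also counted. The neuronal list had 13 of its 14 genes listed and held 0.173% and 0.151% of the counts in replicates 1 and 2, led by Mir137 at 1332 and 1148 CPM. In it Mir124a-1, Mir124a-2, Mir124a-3 and Mir9-2 had no counts. They are numbered copies of 2 miRNAs, whose reads shared between copies are not in any gene's count, so these zeros and the list's share are not full levels of the neuronal miRNAs. Of the 9 tested genes 2 were called, Mir129-1 and Mir129-2, both lower in replicate 2, where 5.79% of all tested genes were called in either direction. The 3 acinar pancreas genes summed to 5.84 and 3.75 CPM, led by Mir217 at 3.17 and 2.10 CPM, and Mir216a was called lower in replicate 2 on 11 against 2 counts. Mir182, Mir183 and Mir96, listed with Mir375 as partners of miR-7 in pituitary and islets, stood at 3510 ± 260, 2656 ± 13.3 and 1020 ± 106 CPM (SD, n = 2), with 0 called. The 3 red cell genes, led by Mir451a at 392 ± 196 CPM (SD, n = 2), and the liver gene Mir122 were all called lower in replicate 2. Their log2 ratios were -1.10 (the median red cell gene) and -1.69 (Mir122). The miR-7 loci stood at 0.00 to 0.40 and the median tested gene at -0.11. The part of any of these cell types in the miR-7 counts was not tested.

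Genes with levels most like each member were ranked by the Euclidean distance in log2(CPM + 1) over the 2 libraries, and the 3 nearest are named. For Mir7b they were Mir15b (distance 0.07), Mir125b-1 (0.07) and Mir540 (0.11). Mir187 (0.06), Mir669c (0.10) and Mir700 (0.10) were nearest to Mir7-1. For Mir7-2 they were Mir383 (0.04), Mir325 (0.04) and Mir302d (0.07). With 2 libraries this is a likeness of level only.

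A pair of listed genes carries a symbol like that of miR-7 without belonging to the family, and both were looked up after their values were seen. Mir7j had 478 and 554 counts, or 81.4 ± 2.24 CPM (SD, n = 2), above Mir7-2, and Mir7k had none in either library. RefSeq names their mature products let-7j and let-7k, and the first shows a seed unlike that of miR-7.
let-7j from Mir7j (chr3:140028281-140028304, plus strand, GRCm38.p6): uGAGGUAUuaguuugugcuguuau

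With Mir7j left out, as here, the family sum was 4949 counts in replicate 1 and 5871 in replicate 2.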

How the data were processed

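Each library came with 1 deposited table of raw counts, made by the authors for mm10 and GENCODE M4 per the file headers of the description files. How reads were trimmed, aligned and counted is not given in the sources. Of the 3 count columns the first is the sum of the others in all gene rows, and column 3 of the table was taken as sense. Lines that name no gene stayed out of totals and tests: reads matching several places were 25.5% and 27.0% of the table's reads in replicates 1 and 2, unmapped reads 18.0% and 16.2%, and reads outside genes 2.92% and 2.26%. Symbols came from GENCODE M21, which matched 1894 of 1973 identifiers.

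CPM is the sense count scaled by the library's sense total, and ratios between the pools had 1 CPM added. Ratios of genes within a library were of raw counts with nothing added. Shares have 95% Wilson and ratios 95% Clopper-Pearson intervals. The intervals of ratios come from counts with nothing added, also where the ratio itself had 1 CPM added. The exact binomial test ran across all genes with at least 10 summed counts, because setting 1 library against the other leaves edgeR's quasi-likelihood test no residual degrees of freedom. The exact binomial test was tried on simulated counts with planted changes and counting noise only. That simulation did not cover spread between pools. The limit for a count of 0 is 3 counts.

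Named were the 3 members, Mir203, Mir671, Mir375, the highest gene of each marker list, listed genes within 10 kb and the 3 genes nearest in level to each member. Mir7j and Mir7k, the numbered pairs and the further list genes with values are outside the rule: they were picked once their values had been seen. The members and lists were chosen with earlier results of these data known. Alternatives changed the test, scaling, minimum, fold limit, pseudocount, strand or denominator, or left out each replicate; division by hairpin length was added after seeing the data. The p-values measure only the spread of counting between these 2 pools. Software was edgeR 4.0.16 and DESeq2 1.42.0 in R 4.3.3, and scipy 1.17.1, statsmodels 0.14.6, numpy 2.4.6, pandas 2.3.3 and matplotlib 3.10.9 in Python 3.11.15.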

Additional observations from a re-analysis of the deposited data

Results flagged for a closer look

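Reads matching several places are outside the gene counts used here, and they numbered 2946663 in replicate 1 and 3406967 in replicate 2, far above the limit that a count of 0 allows. That is 595 and 580 times the summed counts of the 3 miR-7 loci. How many of them are miR-7a-5p was not tested, since the tables give only their sum.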

How the results depend on the processing

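Between the pools 27 genes were called. Other settings gave 16 (a minimum of 100 summed counts, so fewer genes tested), 13 (pseudocount 5), 4 (edgeR's exact test) and 216 (no fold limit), and the 5 remaining settings 22 to 31. No miR-7 locus was called under any setting that kept the 2-fold limit, where the main setting called 5.79% of the 466 tested genes. With no fold limit Mir7b and Mir7-2 were called, as were 46.4% of all tested genes. Over 9 alternatives the log2 ratio ran from 0.10 to 0.25 for Mir7b, from 0.00 to 0.16 for Mir7-1 and from 0.37 to 0.55 for Mir7-2, the highest with DESeq2 size factors, where the adjusted p of Mir7-1 by the exact binomial test went from 1 to 0.0141 (0.0516 with TMM). That scaling raised the median gene by 0.11 and TMM raised it by 0.10. The family share of 0.0853% became 0.0446% with all reads of the tables as denominator, by construction, and 0.0826% to 0.0879% without either replicate. Without either replicate the log2 ratio of Mir7b was 1.49 to 1.59 over Mir7-1 and 3.59 to 3.90 over Mir7-2. Division by hairpin length moved both means by less than their SD. With 233 counts in replicate 1, Mir7-2 is the locus most limited by depth. No paired analysis was possible because there is 1 group of samples.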
